A study of Homo sapiens with 96 samples.

Results

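The genes described here encode the enzymes and cofactors that remove the cap from messenger RNAs and then degrade the uncapped body from its 5′ end. They were taken as the rows of the raw count table that carry the symbols XRN1, XRN2, DCP1A, DCP1B, DCP2, EDC3, EDC4, PATL1, DDX6 and LSM1, over all 32 groups of libraries. All 10 symbols were found among the 44659 gene entries of the table.

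Most mRNAs in the cytoplasm first lose their poly(A) tail, after which the ring formed by LSM1 and its LSM partners binds the shortened tail together with PATL1, a scaffold that links deadenylation to decapping. The catalytic subunit DCP2 then cuts the cap with the help of its cofactor DCP1A or DCP1B and of the enhancers of decapping EDC3 and EDC4, and the exonuclease XRN1 degrades the uncapped RNA from 5′ to 3′. DDX6 is an RNA helicase that joins the decapping complex, represses translation and gathers in cytoplasmic P-bodies with these proteins. XRN2, the nuclear relative of XRN1, degrades the RNA left behind by cleavage at the poly(A) site and helps to release RNA polymerase. Decapping can act on mRNAs that are being translated, and several of these cofactors are known to take part in decay linked to slow or stalled ribosomes.

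The study measured mRNA decay in A375 cells, an established human melanoma line with a mutated BRAF kinase, with QuantSeq, an assay that reads transcripts next to their poly(A) tail. Cells were grown for 18 h in DMSO or in MAPKi, a mixture of the BRAF inhibitor vemurafenib and the MEK inhibitor cobimetinib at 500 nM each. They were then given vehicle (DMSO), 100 µg/ml of the translation elongation inhibitor cycloheximide (CHX), 25 µM of the transcription inhibitor triptolide (T), or both inhibitors (TCHX), with cycloheximide added 5 min ahead of triptolide. Harvests at 0, 1, 3 and 5 h gave 3 libraries for each combination of pretreatment, arm and time. The 0 h MAPKi vehicle group thus had 18 h of MAPKi and no other inhibitor, and the 0 h DMSO vehicle group had the solvent alone. Each harvest time was its own batch of plates, so time and batch cannot be told apart. MAPKi and DMSO vehicle libraries were compared within each time, and so were the inhibitor arms with each other. The falls with triptolide, the percents of the initial level and the TDD index below set later harvests against vehicle at 0 h. They therefore cross batches. The labels do not say whether the 3 libraries of a group came from separate cultures, and p-values measure the spread between these libraries.

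The 96 libraries held between 2381351 and 12520154 counts, with a median of 7143396, and Pearson correlations of log2 CPM between libraries of a group ran from 0.964 to 0.991. The melanocyte markers matched the label of the cells only in part. SOX10, MITF, S100B, S100A1, DCT, CSPG4, AXL and PAX3 were read at 9.9 CPM (counts relative to the total of the library) or more in all vehicle libraries. The pigment genes TYR and MLANA, and TYRP1, stayed below 4 CPM in these libraries. PMEL and NGFR reached at most 2.16 and 4.71 CPM in DMSO, and had medians of 15.1 and 105 CPM in MAPKi. DCT had a median of 46.1 CPM in DMSO and of 2209 CPM in MAPKi. The summed level of 3 keratinocyte, 3 leukocyte and 2 endothelial markers never exceeded 5.04, 1.61 and 0.277 CPM. DUSP6, a direct target of ERK signalling, had a median of 325 CPM in DMSO and of 1.84 CPM in MAPKi vehicle libraries.

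Of the 10 genes, 9 passed the filter on low counts that 14948 entries passed. DCP1B did not pass it. Its 41 counts in all 96 libraries were spread over 25 libraries, the highest count was 4, and 71 libraries had 0 counts. A count of 0 allows a level of up to 0.24 CPM in the deepest library and up to 1.26 CPM in the shallowest, so DCP1B was hardly detectable at this depth by its poly(A)-proximal reads and is left out of the tests below. DCP1A, its paralog as a DCP2 cofactor, was read at 59.4, 61.7 and 61.1 CPM in the 3 DMSO libraries at 0 h.

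In the GENCODE annotation of GRCh38 the exonuclease genes lie at chr3:142306607-142448062 (XRN1, minus strand) and chr20:21303331-21389825 (XRN2, plus strand). The decapping enzyme DCP2 lies at chr5:112976702-113022195 on the plus strand, DCP1A at chr3:53283429-53347586 and DCP1B at chr12:1946053-2004535, both on the minus strand. EDC3 lies at chr15:74630558-74696292 on the minus strand and EDC4 at chr16:67873052-67884499 on the plus strand. PATL1 lies at chr11:59636716-59669037, DDX6 at chr11:118747763-118791164 and LSM1 at chr8:38163335-38176730, all on the minus strand. Reads of this assay fall mainly in the last exon, and the sources do not state whether strand was used in counting. A noncoding RNA annotated on the same strand covers 100% of the last exon of EDC4, and one on the opposite strand covers 86.5% of that of LSM1, so the counts of these genes are uncertain. For DCP2 and DDX6 other genes cover 1.01% and 1.18% of the last exon, and for the remaining genes none of it.

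The mRNAs differ widely in the features that the decay machinery reads. The 3′ UTR of DCP2 is 8711 bases long and holds 28 copies of ATTTA, the core of AU-rich elements, against medians of 1058 bases and 2 copies over 19028 protein-coding genes. The 3′ UTRs of XRN1, DDX6 and DCP1A are 4901, 4342 and 4151 bases long with 14, 9 and 10 copies. Long 3′ UTRs hold more copies by length alone. Per kb, those of DCP2, XRN1, DDX6 and DCP1A hold 3.21, 2.86, 2.07 and 2.41 copies. These densities are higher than in 76.1%, 71.2%, 59.2% and 64.8% of genes, so they stand out less than the copy numbers. Those of EDC4 and EDC3 hold 0 copies. In XRN1, 67.7% of codons end in A or T, a share that is higher than in 96.7% of genes, and in EDC4 32.2% do, below the median of 39.1%. DCP2 and XRN2 have 62.9% and 62.6% of such codons.

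Promoter sequence from RefSeq (GRCh38.p14) was found for 9 of the 10 genes, as windows of 250 bases before and 50 bases after the annotated start. Both strands were searched for CCGGAAG, a motif of ETS factors. The other motifs searched were that of NRF1, AAGATGGC (YY1), TGACGTCA (CREB and ATF factors) and the TATA box, spelled TATAAA. No match overlapped another in these windows. The windows of XRN1, DCP1A, DCP2 and PATL1 held none of these motifs. CCGGAAG, held by 10.2% of 34796 promoters, stood once in DCP1B and EDC4 and in 2 places in EDC3, and AAGATGGC, held by 2.89%, stood in DCP1B and DDX6. TGACGTCA, held by 1.84%, stood in XRN2. The 250 bases before the start are shown for the exonucleases, whose mRNAs moved in opposite directions under MAPKi, and for DDX6, whose vehicle level was not called and whose decay differed. Capitals mark TGACGTCA in XRN2 and the reverse complement of AAGATGGC in DDX6, and each sequence reads 5′ to 3′ on the strand of its gene. They cover chr3:142448038-142448287 (minus strand), chr20:21303081-21303330 (plus strand) and chr11:118791165-118791414 (minus strand).
XRN1: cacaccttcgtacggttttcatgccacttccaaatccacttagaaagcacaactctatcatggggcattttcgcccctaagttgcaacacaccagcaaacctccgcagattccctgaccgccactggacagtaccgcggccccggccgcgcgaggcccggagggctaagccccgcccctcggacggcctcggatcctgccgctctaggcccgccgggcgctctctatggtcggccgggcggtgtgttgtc
XRN2: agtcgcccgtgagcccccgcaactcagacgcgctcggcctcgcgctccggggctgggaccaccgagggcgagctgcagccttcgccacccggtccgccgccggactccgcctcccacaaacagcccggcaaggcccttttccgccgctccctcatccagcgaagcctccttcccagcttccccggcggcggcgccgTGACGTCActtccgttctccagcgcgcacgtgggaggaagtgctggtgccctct
DDX6: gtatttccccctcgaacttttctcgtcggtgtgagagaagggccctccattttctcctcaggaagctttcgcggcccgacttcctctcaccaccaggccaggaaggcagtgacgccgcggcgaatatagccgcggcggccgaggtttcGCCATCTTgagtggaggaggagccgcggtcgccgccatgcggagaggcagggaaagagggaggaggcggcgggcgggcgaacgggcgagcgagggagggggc

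The first comparison asked how the mRNAs stood after MAPKi before any other inhibitor acted. XRN1 was higher in MAPKi-treated cells, and DCP2, LSM1 and XRN2 were lower. These were 4 of the 9 tested genes, 1 in the higher and 3 in the lower direction, where 45.9% of all 14948 genes were called at an adjusted p under 0.05, 21.9% higher and 24.0% lower. Of the 9 genes, 5 had an unadjusted p under 0.05, where 52.1% of all genes did. The median log2 difference of the 9 genes was -0.14, against 0.03 over all genes. RNA of whole cultures was measured, so fewer cells with an mRNA and less of it per cell cannot be told apart.

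XRN1 was read at 61.4, 52.8 and 43.3 CPM (scaled by TMM, which corrects library totals for composition) in the DMSO libraries at 0 h, and at 84.2, 78.9 and 64.7 CPM in the MAPKi libraries. All MAPKi libraries lay above all DMSO libraries. The log2 difference was 0.54 ± 0.13 (SE), with an edgeR adjusted p of 0.000265. The cap-cutting enzyme DCP2 was read at 50.2, 52.3 and 51.2 CPM in DMSO and at 30.5, 35.3 and 32.5 CPM in MAPKi. Its groups were far apart, with a log2 difference of -0.65 ± 0.13 and an edgeR adjusted p of 3.3e-05.

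LSM1, the subunit that sets the cytoplasmic LSM ring apart from the nuclear one, stood at 100.4, 87.7 and 86.3 CPM in DMSO and at 61.9, 74.5 and 62.0 CPM in MAPKi, with no overlap. Its log2 difference was -0.47 ± 0.10, with an edgeR adjusted p of 2.66e-05. XRN2 stood at 268, 247 and 241 CPM in DMSO and at 204, 209 and 214 CPM in MAPKi. These groups did not overlap either, but the difference was smaller, -0.27 ± 0.08 on the log2 scale with an edgeR adjusted p of 0.00564, and it was not called without the replicate 1 libraries (adjusted p 0.142) or without the filter on low counts (adjusted p 0.0656). The 5 genes that were not called had log2 differences between -0.25 (DCP1A) and 0.19 (DDX6).

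Over the vehicle libraries of all 4 times, 12 per pretreatment, 6 of the 9 genes were called, XRN1 higher and 5 genes lower, where 69.0% of all genes were called, 35.8% higher and 33.1% lower. XRN1 ranged from 40.03 to 61.4 CPM in DMSO, with a median of 48.3, and from 64.7 to 84.2 CPM in MAPKi, with a median of 78.3. No MAPKi library fell as low as any DMSO library. The log2 difference was 0.65 ± 0.06 (1.57-fold, edgeR adjusted p 5.31e-15). Within the times it was 0.54, 0.71, 0.65 and 0.69 at 0, 1, 3 and 5 h, each with an edgeR adjusted p of at most 0.000265.

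DCP2 ranged from 36.8 to 55.4 CPM in DMSO, with a median of 46.3, and from 23.1 to 35.3 CPM in MAPKi, with a median of 31.5, so that its libraries did not overlap. The log2 difference was -0.59 ± 0.07 (edgeR adjusted p 1.34e-12). LSM1 ranged from 77.4 to 100.4 CPM in DMSO, median 87.8, and from 57.3 to 74.5 CPM in MAPKi, median 65.4, again with no overlap and with a log2 difference of -0.40 ± 0.05 (edgeR adjusted p 5.96e-12). XRN1, DCP2 and LSM1 were called in the same direction at each of the 4 times on its own.

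DCP1A, which activates DCP2, ranged from 54.1 to 73.9 CPM in DMSO, median 61.5, and from 36.9 to 55.1 CPM in MAPKi, median 50.6. Only the edges of the groups overlapped, and the log2 difference was -0.39 ± 0.07 (edgeR adjusted p 1.01e-06). It was -0.25 at 0 h, where it was not called, and -0.56 at 5 h (edgeR adjusted p 0.000582). XRN2 was lower by a log2 difference of -0.29 ± 0.04 (edgeR adjusted p 2.2e-09), with medians of 263 CPM in DMSO and 210.3 CPM in MAPKi. EDC4, a large scaffold that holds DCP2 and DCP1A together, had medians of 56.8 CPM in DMSO and 51.9 CPM in MAPKi and overlapping libraries. Its log2 difference of -0.21 ± 0.08 (edgeR adjusted p 0.0106) was not called without the replicate 2 libraries (adjusted p 0.142) or without the replicate 3 libraries.

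The other 3 genes had log2 differences over all times between -0.22 (PATL1) and 0.06 (DDX6). The medians of DDX6 were 135 CPM in DMSO and 144 CPM in MAPKi, and the 95% interval of its log2 difference ran from -0.03 to 0.15. Its libraries did not overlap at 0 h, with 119 to 139.9 CPM in DMSO and 143 to 151 CPM in MAPKi, or at 1 h, with 129.8 to 138 and 142 to 151 CPM, and overlapped at 3 and 5 h. EDC3, which holds the complex together in P-bodies, had an interval from -0.15 to 0.22. That of PATL1 was wider, from -0.51 to 0.08. PATL1 varied most between libraries of a group, with a within-group SD of 0.40 on the log2 scale, against 0.23 for EDC3 and 0.10 for XRN2 and DDX6.

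**Figure D1:**
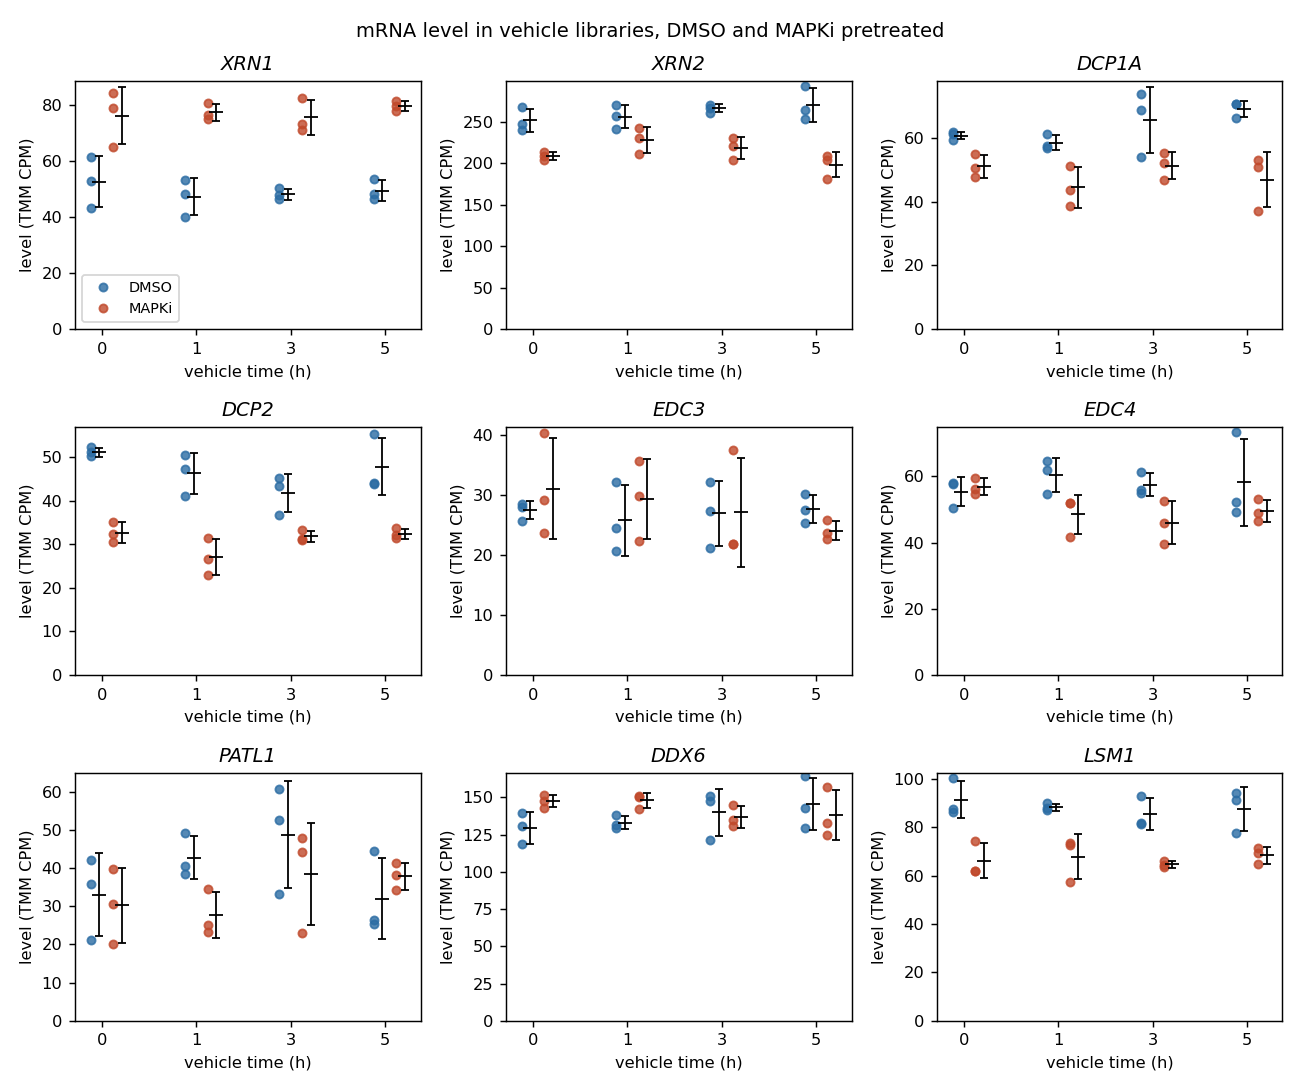
mRNA level of the 9 tested genes in CPM scaled by TMM (y axis, from 0) in the vehicle libraries at each time in hours (x axis), with points for single libraries (3 per group), DMSO in blue and MAPKi in red, and black bars for the mean ± SD. The red points of XRN1 lie above the blue points at every time and those of DCP2 and LSM1 below them, while those of DDX6 lie above the blue points at 0 and 1 h and overlap with them at 3 and 5 h.

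Without inhibitors no change of the 9 genes over the time course was called. Their log2 differences between 0 and 5 h ran from -0.10 to 0.18 in DMSO and from -0.37 (EDC3) to 0.32 (PATL1) in MAPKi. The 95% interval of PATL1 in DMSO ran from -0.63 to 0.56, so the absence of a call does not show that the levels stayed the same. Between 0 and 5 h of vehicle, edgeR called 0 of the 9 genes in DMSO and 0 in MAPKi, where it called 1.06% of all genes in DMSO and 3.34% in MAPKi, in the latter 1.26% higher and 2.07% lower. At an unadjusted p under 0.05 it also found 0 of the 9 in both, where 12.1% and 14.9% of all genes passed, and DESeq2 called 0. The inhibitor arms at 0 h, harvested just after addition, likewise had 0 called genes against vehicle in each of the T, CHX and TCHX arms, as had all 14948 genes, and DESeq2 called 0 of the 9. At an unadjusted p under 0.05 there were 2 of the 9 genes in the T arm, EDC4 and LSM1, where 5.82% of all genes passed, and 0 in the CHX and TCHX arms, where 2.95% and 4.42% passed.

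The second comparison asked how the mRNAs responded when translation alone was blocked. In DMSO-treated cells, 6 of the 9 genes rose after 3 and 5 h of cycloheximide and 0 fell, where 18.3% of all genes were called higher and 13.5% lower. The genes that rose were both exonucleases and the cofactors DCP1A, EDC3, PATL1 and LSM1. The median log2 difference of the 9 genes was 0.31, against 0.01 over all genes. After 1 h edgeR called 0 of the 9 genes in either pretreatment, where it called 0.0803% of all genes in DMSO and 0.0736% in MAPKi, where 0.0134% were lower. DESeq2 also called 0, and 0 genes in DMSO and 1 in MAPKi had an unadjusted p under 0.05, where 4.71% and 9.55% of all genes did.

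DCP1A stood at 70.5, 70.6 and 66.3 CPM in the vehicle libraries of DMSO-treated cells at 5 h and at 117, 124 and 129 CPM with cycloheximide. The groups were far apart, and at 3 h cycloheximide libraries of 86.0 to 90.2 CPM already lay above vehicle libraries of 54.1 to 73.9 CPM. Over both times the log2 difference was 0.63 ± 0.10 (edgeR adjusted p 1.03e-07). XRN1 stood at 53.4, 48.3 and 46.2 CPM in vehicle at 5 h and at 91.7, 87.1 and 84.8 CPM with cycloheximide, also without overlap. Its log2 difference was 0.59 ± 0.09 over both times (edgeR adjusted p 1.63e-07), with 0.34 at 3 h and 0.84 at 5 h.

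EDC3 was at 27.5, 25.4 and 30.1 CPM in vehicle and at 52.3, 46.4 and 46.7 CPM with cycloheximide at 5 h. All cycloheximide libraries were higher, with a log2 difference of 0.59 ± 0.13 over both times (edgeR adjusted p 0.000185). XRN2 rose by 0.31 ± 0.06 on the log2 scale (edgeR adjusted p 1.08e-05). LSM1 rose by 0.22 ± 0.07 (edgeR adjusted p 0.00782) and PATL1 by 0.55 ± 0.21 (edgeR adjusted p 0.0338). The call of PATL1 was lost when the libraries of any 1 replicate number were left out, with adjusted p up to 0.214, and that of LSM1 without replicate 2 or 3, with adjusted p up to 0.229, or without the filter on low counts (adjusted p 0.171). The other 3 genes, DCP2, EDC4 and DDX6, had log2 differences between -0.01 and 0.22.

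In MAPKi-treated cells, 2 of the 9 genes rose with cycloheximide and 0 fell, where 29.9% of all genes were called, 15.9% higher and 13.9% lower. XRN1 was at 79.5, 77.7 and 81.3 CPM in vehicle at 5 h and at 115, 103 and 99.6 CPM with cycloheximide. Those libraries did not overlap, whereas at 3 h they did, and the log2 difference over both times was 0.26 ± 0.09 (edgeR adjusted p 0.017). DCP1A was at 36.9, 53.0 and 50.7 CPM in vehicle at 5 h and at 66.4, 64.2 and 61.5 CPM with cycloheximide, with a log2 difference over both times of 0.27 ± 0.10 (edgeR adjusted p 0.0259). The call of XRN1 was lost without replicate 1 (adjusted p 0.352) or replicate 3, and that of DCP1A without replicate 1 (adjusted p 0.269), replicate 2 or the filter on low counts (adjusted p 0.0541). The other 7 genes had log2 differences between -0.06 and 0.35.

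All 9 genes had a smaller log2 difference with cycloheximide in MAPKi than in DMSO, by 0.02 to 0.45. The difference over all genes also had a median below 0, at -0.04. Of the 9 genes, 7 lay below that median, and their own median was -0.28. The test of that difference called 1 of the 9, XRN2, where 11.2% of all genes were called, 6.59% in the lower and 4.64% in the higher direction. At 5 h XRN2 stood at 254, 293 and 264 CPM in vehicle and at 381, 388 and 336 CPM with cycloheximide in DMSO-treated cells. In MAPKi-treated cells it stood at 204, 209 and 181 CPM in vehicle and at 212, 199.8 and 216 CPM with cycloheximide. The cycloheximide libraries were thus all higher in DMSO and overlapped with vehicle in MAPKi. The difference between the responses was -0.29 ± 0.08 on the log2 scale (edgeR adjusted p 0.00973). It was not called without the libraries of any 1 replicate number, with adjusted p up to 0.252, nor with DESeq2 size factors, without the filter on low counts or with the groups of the contrast alone, with adjusted p of 0.0578, 0.129 and 0.0644.

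**Figure D2:**
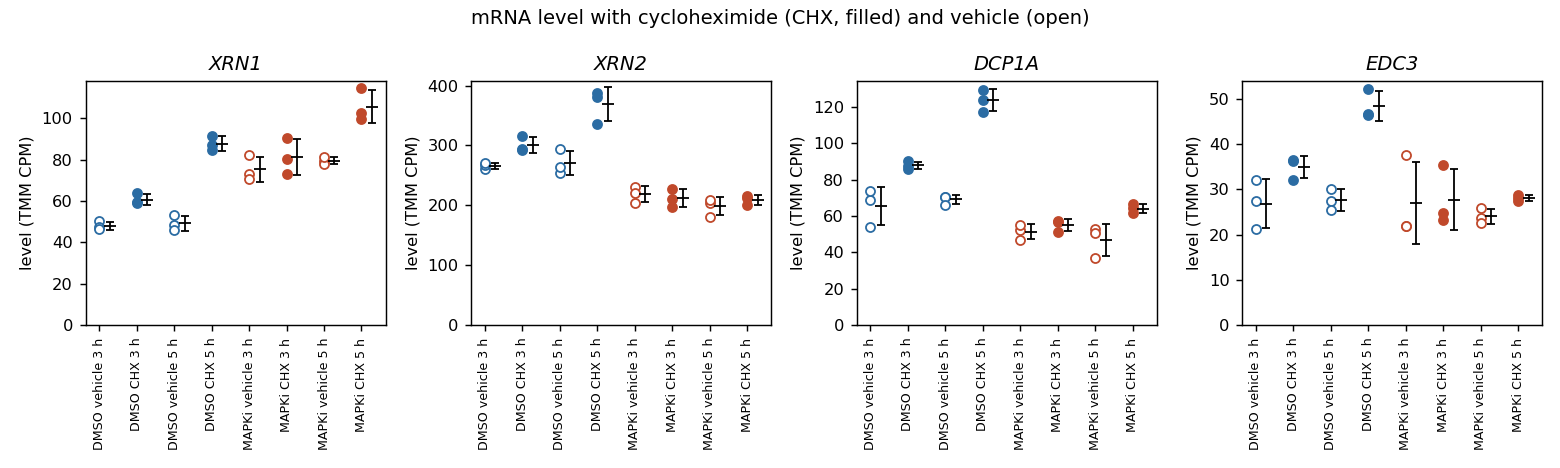
mRNA level of XRN1, XRN2, DCP1A and EDC3 in CPM scaled by TMM (y axis, from 0) in single libraries with vehicle (open points) or cycloheximide (filled points) at 3 and 5 h in DMSO-treated (blue) and MAPKi-treated (red) cells, with black bars for the mean ± SD of 3 libraries. In DMSO-treated cells at 5 h the filled points lie above the open points in each panel, whereas for XRN2 in MAPKi-treated cells they overlap.

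The third comparison followed the decay of the mRNAs once transcription was blocked. Counts were scaled by 36 genes whose share of the library rose in the T arm in all replicates, so that a percent of the initial level is relative to these genes, none of which is among the 10 described here. The rule for these genes was a strict reading of that in the methods, with the rise required at both 3 and 5 h. With a rise at either time 526 genes met it, and scaling by these called the same number of the 9 genes in each triptolide comparison. On this scale the median gene of 10673 was at 67.5% ± 1.44 (SD, n = 3) of its initial level after 5 h of triptolide in DMSO-treated cells and at 60.9% ± 2.21 in MAPKi-treated cells. After 3 and 5 h, 6 of the 9 genes had fallen in DMSO and 8 in MAPKi, where 48.7% and 56.1% of all genes were called lower. In DMSO the same number, 6 of the 9, had an unadjusted p under 0.05, where 55.6% of all genes did. Scaled by TMM, which sets the typical gene to about no change, 20.7% of all genes were called lower in each pretreatment, and 12.5% in DMSO and 19.6% in MAPKi were called higher, against 1.3% and 1.28% by the stable genes. With TMM 3 of the 9 genes were called in DMSO, XRN1, DCP1A and DCP2, all lower, and 3 in MAPKi, DCP1A and DDX6 lower and XRN2 higher. The median log2 difference of the 9 genes was -0.46 in DMSO and -0.70 in MAPKi, beside -0.47 and -0.59 over all genes.

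DCP1A had the lowest percent of its initial level among the 9 genes at 5 h in both pretreatments. In DMSO it was at 50.3%, 60.3% and 46.5% of its initial level at 3 h and at 36.0%, 37.1% and 29.4% at 5 h. In MAPKi it was at 40.5%, 44.8% and 33.9% at 3 h and at 17.7%, 30.0% and 21.0% at 5 h. All libraries were far below the initial level, and 14.8% and 10.8% of genes had a lower percent than DCP1A at 5 h in DMSO and MAPKi. The log2 differences over both times were -1.23 ± 0.13 in DMSO (edgeR adjusted p 1.05e-13) and -1.72 ± 0.13 in MAPKi (edgeR adjusted p 5.58e-20), and both were called under every other scaling tried.

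XRN1 was at 48.2%, 54.2% and 51.4% of its initial level after 5 h in DMSO and at 45.4%, 67.4% and 58.2% in MAPKi. The values of the pretreatments overlapped. The log2 differences over 3 and 5 h were -0.82 ± 0.13 (edgeR adjusted p 5.85e-08) and -0.64 ± 0.12 (edgeR adjusted p 7.49e-06). Scaled by TMM the value in MAPKi was 0.01 and was not called. DCP2 was at 54.4%, 69.5% and 53.6% after 5 h in DMSO and at 57.1%, 44.6% and 64.2% in MAPKi, with log2 differences over both times of -0.75 ± 0.12 (edgeR adjusted p 2.42e-07) and -0.86 ± 0.13 (edgeR adjusted p 1.72e-08).

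LSM1 and XRN2 lay near the median gene. After 5 h LSM1 was at 70.5% ± 10.5 (SD, n = 3) in DMSO and 59.9% ± 5.94 in MAPKi, and XRN2 at 73.0% ± 4.45 and 66.6% ± 2.66. The log2 differences of LSM1 were -0.48 ± 0.09 (edgeR adjusted p 5.37e-06) and -0.62 ± 0.09 (edgeR adjusted p 1.17e-08), and those of XRN2 -0.37 ± 0.09 (edgeR adjusted p 0.00058) and -0.47 ± 0.09 (edgeR adjusted p 1.18e-05). Their direction turned when counts were scaled by TMM, to 0.00 and 0.02 for LSM1 and to 0.11 and 0.17 for XRN2. EDC3 and EDC4 were called in MAPKi and not in DMSO. After 5 h EDC3 was at 77.8% ± 14.6 in DMSO and 58.2% ± 20.4 in MAPKi, and EDC4 at 78.8% ± 3.86 and 57.4% ± 3.6. The log2 differences in MAPKi were -0.77 ± 0.16 for EDC3 (edgeR adjusted p 2.96e-05) and -0.70 ± 0.12 for EDC4 (edgeR adjusted p 5.34e-07), whereas the test of the difference between pretreatments called neither (adjusted p 0.383 and 0.152). EDC4 was already at 62.8%, 54.0% and 98.4% in the T arm of MAPKi-treated cells at 0 h, and its fall was not called when these libraries served as the initial level. PATL1 ranged from 47.8% to 135% of its initial level at 5 h and was called in neither pretreatment.

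DDX6 was the one gene of the 9 whose decay was called different between the pretreatments. In DMSO-treated cells it was at 63.9%, 70.4% and 86.2% of its initial level after 3 h of triptolide and at 72.1%, 69.0% and 78.5% after 5 h. In MAPKi-treated cells it was at 45.7%, 49.4% and 59.9% after 3 h and at 43.2%, 38.5% and 43.4% after 5 h. The groups did not overlap at either time. In DMSO it stood near the middle of all genes at 5 h, with 56.3% of genes lower, and in MAPKi 25.1% were lower.

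Over 3 and 5 h the log2 difference of DDX6 to the initial level was -0.46 ± 0.09 in DMSO (edgeR adjusted p 1.04e-05) and -1.11 ± 0.09 in MAPKi (edgeR adjusted p 3.07e-19). The difference between them was -0.66 ± 0.13, with an edgeR adjusted p of 0.0004. It was the only one of the 9 genes called in this test, where 3.17% of all genes were called, 2.76% with a larger fall in MAPKi. The median of all genes was -0.11, so that DDX6 stood 0.55 below it. The difference was called in all 13 alternative analyses, with log2 values from -1.02 to -0.49 and adjusted p of at most 0.0302, although the fall in DMSO alone turned to 0.03 under TMM. The other 8 genes differed by between -0.49 and 0.19. The initial level was that of vehicle at 0 h, where the mean of DDX6 in MAPKi was 1.14 times that in DMSO. In vehicle at 5 h this ratio was 0.949. How much this shift adds to the difference was not tested.

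The last comparison asked how much of each mRNA remained when translation was blocked together with transcription. With cycloheximide added to triptolide, 4 of the 9 genes were higher than with triptolide alone at 3 and 5 h in DMSO and 7 in MAPKi, and 0 were lower. Of all genes, 28.4% were called higher in DMSO and 41.4% in MAPKi, and 0.468% and 0.535% lower. Under TMM 14.97% and 18.9% were called higher and 6.98% and 15.1% lower, and 2 of the 9 genes were called in each pretreatment. The median log2 difference of the 9 genes was 0.20 in DMSO and 0.42 in MAPKi, beside 0.23 and 0.34 over all genes.

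DCP1A was at 61.2%, 78.1% and 89.0% of its initial level after 5 h of both inhibitors in DMSO, above the 29.4% to 37.1% with triptolide alone. In MAPKi it was at 49.1%, 46.9% and 62.5%, above 17.7% to 30.0%. The arms did not overlap at 3 or 5 h in either pretreatment. The log2 differences were 0.96 ± 0.11 in DMSO (edgeR adjusted p 6.01e-12) and 0.91 ± 0.11 in MAPKi (edgeR adjusted p 1.03e-10), which is 0.73 and 0.58 above the median of all genes. These calls stood in all 12 alternatives.

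DDX6 was higher with both inhibitors than with triptolide alone in MAPKi-treated cells. With both inhibitors it was at 81.0%, 77.5% and 97.0% after 3 h and at 72.5%, 69.7% and 80.1% after 5 h in MAPKi, above 45.7% to 59.9% and 38.5% to 43.4% with triptolide alone. In DMSO it was at 78.2%, 79.4% and 93.9% after 3 h and at 64.2%, 77.2% and 86.2% after 5 h, values that overlapped with those of triptolide alone. After 5 h of TCHX the DMSO mean was 75.9% ± 11.1 (SD, n = 3) and the MAPKi mean 74.1% ± 5.40, which is less apart than their spread.

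The log2 difference of DDX6 between TCHX and T was 0.78 ± 0.07 in MAPKi (edgeR adjusted p 3.23e-15), and the gene was not called in DMSO. The difference between pretreatments was 0.66 ± 0.10 (edgeR adjusted p 4e-06), where 7.11% of all genes were called, 6.82% in this direction, and where the median gene differed by 0.13. All 12 alternatives called it, with log2 values from 0.51 to 0.74 and adjusted p of at most 0.00155. This test and that of the decay with triptolide share the T libraries at 3 and 5 h, so they are not independent of each other.

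EDC4 was the only other gene called in the test between pretreatments. With both inhibitors it was at 71.7%, 77.9% and 74.3% at 5 h in DMSO, beside 77.1%, 83.2% and 76.1% with triptolide alone, and at 72.0%, 79.8% and 97.3% in MAPKi, beside 61.3%, 56.9% and 54.1%. At 5 h the arms overlapped in DMSO and not in MAPKi. The log2 difference in MAPKi was 0.41 ± 0.10 (edgeR adjusted p 0.000424) and the difference between pretreatments was 0.48 ± 0.14 (edgeR adjusted p 0.022). The latter was called in 4 of 12 alternatives and in none of those that left out the libraries of 1 replicate number, with adjusted p up to 0.153 for these. The call of EDC4 within MAPKi was lost with TMM, total counts and the stable genes of both triptolide arms.

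XRN1, XRN2 and LSM1 were called in both pretreatments. In MAPKi the log2 differences were 0.42 ± 0.10 for XRN1 (edgeR adjusted p 0.000417), 0.40 ± 0.08 for XRN2 (edgeR adjusted p 7.29e-06) and 0.45 ± 0.08 for LSM1 (edgeR adjusted p 4.4e-07). In DMSO they were 0.30 ± 0.11 (edgeR adjusted p 0.0267), 0.29 ± 0.08 (edgeR adjusted p 0.0022) and 0.20 ± 0.07 (edgeR adjusted p 0.0335), close to the median of all genes. That median was 0.23 in DMSO and 0.34 in MAPKi. The DMSO calls of XRN1 and XRN2 were lost without replicate 1 or 3, with adjusted p up to 0.549 and 0.069, and that of LSM1 without any 1 of the 3, with adjusted p up to 0.355. All 3 were also lost with TMM, total counts, the stable genes of both triptolide arms and the groups of the contrast alone. LSM1 in DMSO turned to -0.03 under TMM. The MAPKi calls of XRN2 and LSM1 were lost with TMM (edgeR adjusted p 0.86 and 0.504). That of XRN1 was lost with TMM, total counts and the stable genes of both triptolide arms. DCP2 was called in MAPKi and not in DMSO, with a log2 difference of 0.42 ± 0.11 (edgeR adjusted p 0.000735). Its call was lost with the same scalings as that of XRN1 in MAPKi. EDC3 and PATL1 were called in neither pretreatment.

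**Figure D3:**
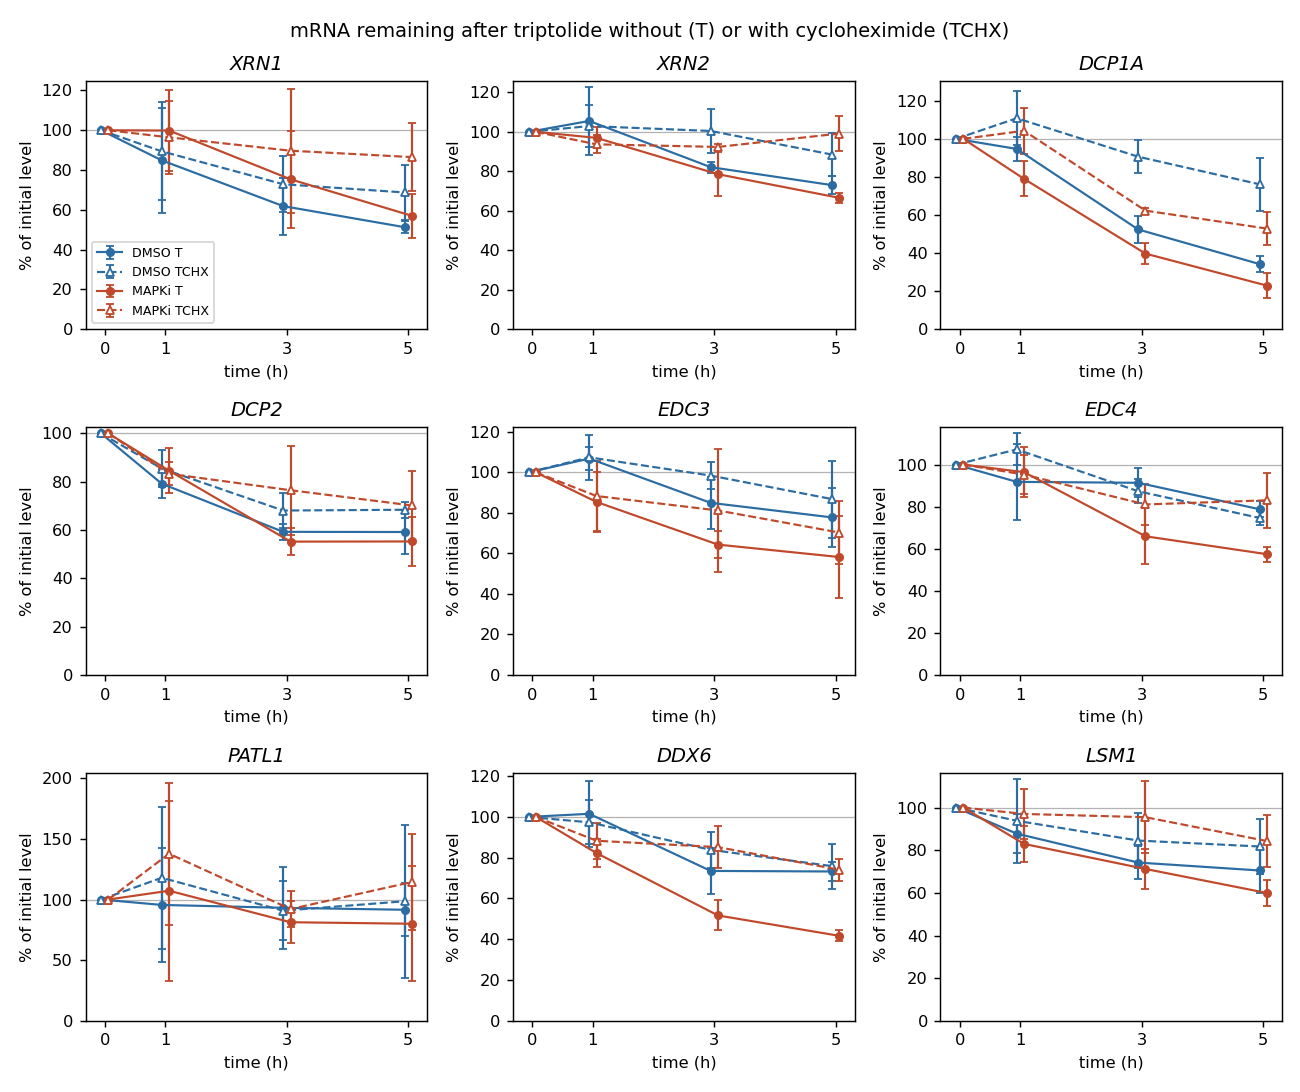
Percent of the initial level (vehicle at 0 h of the same replicate number, y axis from 0) of the 9 tested genes against hours of treatment (x axis), after triptolide (T, solid lines and filled circles) or triptolide with cycloheximide (TCHX, dashed lines and open triangles) in DMSO-treated (blue) and MAPKi-treated (red) cells, as mean ± SD of 3 libraries scaled by 36 stable genes. The solid red line of DDX6 ends at 41.7% while its other lines end between 73.2% and 75.9%, and the solid lines of DCP1A end at 34.2% in blue and 22.9% in red.

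The TDD index of the study expresses the same comparison as the level in TCHX minus that in T, as a share of the initial level, at 3 and 5 h. Averaged over both times, DDX6 had indices between 0.03 and 0.09 in the DMSO replicates and between 0.30 and 0.37 in the MAPKi replicates, without overlap. The means were 0.06 ± 0.03 and 0.33 ± 0.04 (SD, n = 3), and limma gave a difference of 0.26 with an adjusted p of 0.0602, so it missed the threshold. EDC4 had indices of -0.04 ± 0.02 and 0.20 ± 0.06, also without overlap. The typical gene, taken as the median of 10673 genes per replicate, had a mean index of 0.12 with DMSO pretreatment. With MAPKi this mean stood at 0.18. EDC4 in MAPKi thus lay close to the typical gene and DDX6 above it, while both genes lay below it in DMSO. DCP1A had the highest index in DMSO, 0.40 ± 0.06, and 0.26 ± 0.09 in MAPKi, with overlap between the replicates. limma called 0 of the 9 genes, where it called 0.122% of 10673 genes, and 3 of the 9 had an unadjusted p under 0.05, where 16.5% of all genes did. Without the replicate term in the model 1 of the 9 genes was called, where no alternative called more than 52 genes in all.

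**Figure D4:**
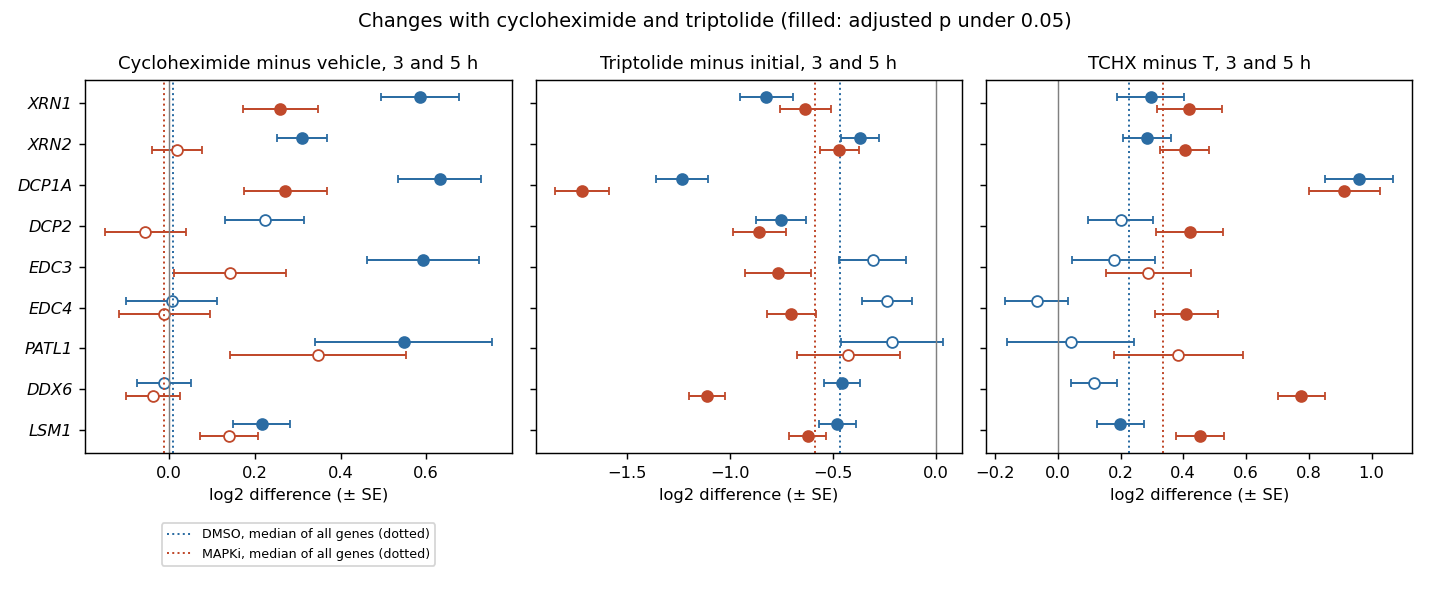
Log2 difference ± SE (x axis) of the 9 tested genes (rows) for cycloheximide minus vehicle, triptolide minus initial level, and triptolide with cycloheximide minus triptolide alone at 3 and 5 h, in DMSO-treated (blue) and MAPKi-treated (red) cells, with filled points for an edgeR adjusted p under 0.05 and dotted lines for the median of all 14948 genes. In the middle panel the points of DDX6 are at -0.46 and -1.11 and in the right panel its red point is at 0.78, on the scale of the 36 stable genes.

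Levels over the 32 groups are given in CPM scaled by TMM, also for the triptolide arms, unlike the percents of the initial level above. On this scale the mean level of DCP1A varied most, with a 6.28-fold range. It ran from 19.7 ± 5.18 CPM (SD, n = 3) after 5 h of triptolide in MAPKi to 124 ± 6.06 CPM after 5 h of cycloheximide in DMSO. XRN1 ranged from 39.6 ± 5.84 CPM after 5 h of triptolide in DMSO to 106 ± 7.95 CPM after 5 h of cycloheximide in MAPKi. For XRN2, DCP2, EDC3 and LSM1 as well, the highest mean was that of DMSO-treated cells after 5 h of cycloheximide. DDX6 varied least by TMM, from 104 ± 6.43 CPM after 5 h of triptolide in MAPKi to 149 ± 3.17 CPM in TCHX at 0 h in MAPKi, a 1.44-fold range. Scaled by the stable genes it was at 41.7% of its initial level after 5 h of triptolide in MAPKi. When the groups were ordered by mean level, the 31 neighbouring pairs differed by more than their SD in 6 pairs for DCP1A, 3 for XRN1, 1 each for XRN2, DCP2, EDC3 and LSM1, and 0 for EDC4, PATL1 and DDX6.

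Patterns over the 32 group means were compared by Pearson's r of log2 CPM scaled by TMM, as a description of groups that share pretreatments and inhibitors. Among the genes described here DCP2 and LSM1 were most alike, with r = 0.86, and LSM1 and XRN2 followed with 0.84. XRN1 was unlike the others, with -0.70 to DCP2, -0.69 to LSM1 and at most 0.10, to DDX6. Among 8549 genes, XRN1 was closest to GOLGB1 (0.97) and CYLD (0.97), and LSM1 to EIF3J (0.97) and ARPC5L (0.97). DCP1A was closest to TGS1 (0.96) and SOWAHC (0.96), DCP2 to TBC1D4 (0.95) and ZC3H13 (0.95), and XRN2 to SLC1A4 (0.96) and METAP2 (0.95). EDC3, EDC4 and PATL1 had their highest r with BCL2L12 (0.82), INTS4 (0.79) and AZIN1 (0.86). DDX6 had no close match, with 0.72 to UGCG and 0.70 to PPP4R3A.

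The partners of these proteins were taken from lists of the LSM ring, of decapping cofactors and other cap hydrolases, of XRN2 partners, of the exosome and SKI complex that degrade RNA from the 3′ end, and of the PAN2-PAN3 deadenylase with poly(A) binding proteins. In MAPKi against DMSO over all vehicle times, where 35.8% of all genes were called higher and 33.1% lower, 0 of the 6 tested LSM ring partners were higher and 5 were lower, with a median log2 difference of -0.43, against 0.05 over all genes. LSM7 differed by -0.74 ± 0.05, LSM6 by -1.20 ± 0.14 and LSM3 by -0.35 ± 0.05, with edgeR adjusted p of 1.81e-23, 1.48e-11 and 4.61e-08. After triptolide, scaled by the stable genes, 1 of the 6 partners was called lower in DMSO and 2 in MAPKi, where 48.7% and 56.1% of all genes were. The list medians were -0.11 and -0.15, beside -0.47 and -0.59 over all genes. LSM8, which takes the place of LSM1 in the nuclear ring, was called lower in both pretreatments. It differed by -0.68 ± 0.21 in DMSO (edgeR adjusted p 0.00492) and -0.93 ± 0.21 in MAPKi (edgeR adjusted p 0.000133).

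Of the 14 tested decapping partners and cap hydrolases, 5 were higher and 8 lower in MAPKi, with a median of -0.18, where 69.0% of all genes were called. The cap-binding translation factor EIF4E was lower by -1.08 ± 0.05 and DCPS, which clears the cap left by decay from the 3′ end, by -1.42 ± 0.09, whereas NUDT3, another decapping enzyme, was higher by 0.79 ± 0.06, with edgeR adjusted p of 6.43e-31, 8.24e-26 and 2.15e-19. Of the 17 tested genes of the exosome and SKI complex, 2 were higher and 10 lower, with a median of -0.54, so that 12 of 17 were called, a share near the 69.0% of all genes. The exosome core subunits EXOSC4, EXOSC9 and EXOSC7 differed by -1.38 ± 0.06, -1.26 ± 0.06 and -1.07 ± 0.06, with edgeR adjusted p of 9.05e-34, 6.06e-31 and 7.21e-30. Of the 6 tested XRN2 partners 0 were higher and 5 lower, with a median of -0.34. Of the 5 genes of PAN2-PAN3 and the poly(A) binding proteins 2 were higher and 2 lower, with PABPC4 at -0.75 ± 0.06 (edgeR adjusted p 4.2e-20) and PAN3 at 0.37 ± 0.08 (edgeR adjusted p 1.34e-05).

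In the test of TCHX minus T between pretreatments, 6 of the 17 exosome and SKI genes were called, all in the direction of a larger difference in MAPKi, where 7.11% of all genes were called and 6.82% in that direction, with a list median of 0.23 beside 0.13 over all genes. EXOSC9 differed by 0.85 ± 0.13 (edgeR adjusted p 2.34e-06), EXOSC4 by 0.51 ± 0.14 (edgeR adjusted p 0.00979) and DIS3, a nuclease of the exosome, by 0.37 ± 0.10 (edgeR adjusted p 0.0172). Of the decapping partners 2 of 14 were called, RC3H1 at 0.49 ± 0.14 (edgeR adjusted p 0.0188) and GIGYF2, which represses mRNAs with stalled ribosomes, at 0.40 ± 0.13 (edgeR adjusted p 0.0471). In the lists of the LSM ring, the XRN2 partners and PAN2-PAN3 edgeR called 0 of 6, 0 of 6 and 0 of 5 genes.

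Several XRN2 partners had larger differences than any of the 9 genes. In MAPKi-treated cells PCF11, a cleavage factor that works with XRN2 at gene ends, was higher by 2.46 ± 0.16 with both inhibitors than with triptolide alone (edgeR adjusted p 9.66e-23), and CDKN2AIP, a regulator of XRN2, by 2.23 ± 0.15 (edgeR adjusted p 2.79e-22). Of the 6 tested XRN2 partners 5 were called higher in MAPKi and 4 in DMSO, with list medians of 1.14 and 1.06, where 41.4% and 28.4% of all genes were called higher, and 18.9% and 14.97% when scaled by TMM. Of the exosome and SKI genes 12 of 17 were called higher in MAPKi and 9 in DMSO, and of the decapping partners 9 and 7 of 14. Of the LSM ring partners 1 and 0 of 6 were called, with medians of 0.03 and -0.04.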

How the data were processed

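QuantSeq 3′ libraries of the cytoplasmic RNA of A375 cells were analysed from the raw count table that the authors deposited, which holds whole-number counts per gene for 96 libraries. Per the labels and the methods of the study, reads were trimmed with fastp 0.20.1, aligned to GRCh38.p13 with HISAT2 2.2.1 and counted with HTSeq 0.13.5. Whether strand was used in counting is not given in the sources used here, and 0 spike-in entries are in the table. Groups were taken from the sample labels, and all columns were used. The 10 genes and the lists of partners were chosen with earlier results of these data known.

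Entries with low counts were removed with the default filter of edgeR 4.0.16 (R 4.3.3). The quasi-likelihood test of edgeR was fitted over all 32 groups for vehicle and cycloheximide contrasts, scaled by TMM, with Benjamini-Hochberg adjustment over the 14948 genes tested and a threshold of 0.05. For triptolide contrasts, libraries were scaled by 36 genes from a strict reading of the rule of the study, met in all replicates of both pretreatments: over 0.2 CPM at the start, at least 1.1 times the initial share at both 3 and 5 h of triptolide, and an initial share above 0.1 of the later one. The methods name 3 or 5 h, and a rise at either time, which 526 genes met, was an alternative. Percents of the initial level and the TDD index were formed per replicate number. The TDD index was tested with limma 3.58.1 with pretreatment, time and replicate as terms over 10673 genes with an initial normalized count of at least 10. DESeq2 1.42.0, other scalings, no filter, the replicate number as a block and leaving out each replicate number were tried as alternatives. The edgeR and limma scripts were tested before use on simulated data with 200 changed genes. For MAPKi against DMSO they recovered 59.6% of 2-fold and 12.6% of 1.5-fold changes at 0 h, and 96.6% and 80.0% over all times. For TCHX minus T these shares were 84.4% and 44.7% in MAPKi, and 47.8% and 6.38% between pretreatments. For the TDD index they were 47.4% and 11.4%. Of all calls, 2.17% to 7.55% were false. A gene that was not called may therefore have changed.

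The 9 tested genes are described in each comparison, with statistics for those called and ranges for the others, and DCP1B is described by its counts alone. Of each partner list at most the 3 called genes with the smallest adjusted p were named per comparison. For likeness the 2 closest genes with a mean of at least 10 CPM were named. Limits from a count of 0, set at 3 counts, cover counting error only. Intervals of differences were formed from the SE of edgeR, which includes the spread between libraries of a group.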

Additional observations from a re-analysis of the deposited data

Results flagged for a closer look

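The following results were picked out because the same contrast differed between DMSO-treated and MAPKi-treated cells in a test of the difference itself. The response of XRN2 to cycloheximide at 3 and 5 h differed by -0.29 on the log2 scale (edgeR adjusted p 0.00973), with a response of 0.31 in DMSO and 0.02 in MAPKi. The fall of DDX6 with triptolide differed by -0.66 (edgeR adjusted p 0.0004), from -0.46 in DMSO to -1.11 in MAPKi. The difference of DDX6 between TCHX and T differed by 0.66 (edgeR adjusted p 4e-06), with 0.12 in DMSO and 0.78 in MAPKi. That of EDC4 differed by 0.48 (edgeR adjusted p 0.022), with -0.07 in DMSO and 0.41 in MAPKi. The triptolide libraries are shared by these last comparisons. The counts of EDC4 are uncertain, since another gene on the same strand covers its last exon. The difference of XRN2 was called in 2 of 8 alternatives and that of EDC4 in 4 of 12. Both were lost when the libraries of any 1 replicate number were left out. The differences of DDX6 were called in all 13 and all 12 alternatives.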

How the results depend on the processing

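Over the 10 genes, 47 results were called, 22 of them under every alternative. Of 503 alternative values, 425 kept their direction and side of the threshold, 71 kept their direction but lost the call and 7 turned. All 7 turned under TMM: triptolide against the initial level for XRN2 (0.11), DDX6 (0.026) and LSM1 (0.0019) in DMSO and for XRN1 (0.0087), XRN2 (0.17) and LSM1 (0.023) in MAPKi, and TCHX minus T for LSM1 in DMSO (-0.035). By its construction TMM removes a fall shared by most genes. The stable genes were in turn chosen because their share rose with triptolide in these same libraries, so scaling by them lowers the typical gene. Without spike-in entries in the table, the size of a shared fall cannot be told from these counts.

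With TMM the number of called genes among the 9 was 3 for triptolide in DMSO (6 with the stable genes), 3 in MAPKi (8), 2 for TCHX minus T in DMSO (4), 2 in MAPKi (7) and 1 for its test between pretreatments (2). With total counts these numbers were 3 for triptolide in DMSO, 1 and 4 for TCHX minus T in DMSO and MAPKi and 1 between pretreatments. With stable genes of both triptolide arms they were 1, 4 and 1 for TCHX minus T. With mitochondrial rRNA they were 4 for triptolide between pretreatments, against 1, and 2 for TCHX minus T in DMSO and 1 between pretreatments. Without the filter on low counts 1 gene was called for TCHX minus T between pretreatments and 0 for cycloheximide between pretreatments, against 1. The latter was also 0 with DESeq2 size factors and with the groups of the contrast alone, which gave 1 for TCHX minus T in DMSO. For the TDD index 1 gene was called without the replicate term and 1 with the T arm at 0 h as the initial level, against 0. The cause of these changes was not tested. Over all genes tested, the number called moved as well, so these counts do not show a change particular to the 9 genes. For pairs of setting and comparison without a number over all genes here, the count of the 9 was not set against one. TMM called 421 of all genes higher and 132 lower for TCHX minus T between pretreatments (1063 in the main analysis). Total counts called 4602 for triptolide in DMSO (7468 in the main analysis), and mitochondrial rRNA 2108 for triptolide between pretreatments (474). Stable genes of both triptolide arms called 4206 for TCHX minus T in MAPKi (6274). The groups of the contrast alone called 1902 for cycloheximide between pretreatments (1678). For the TDD index the T arm at 0 h as the initial level called 52 (13). Scaling by the 526 genes that rose at 3 or 5 h left the number of called genes among the 9 as it was in each comparison.

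Leaving out each replicate number in turn gave 0 to 1 called genes for cycloheximide in MAPKi, 0 for its test between pretreatments, 1 to 3 for TCHX minus T in DMSO and 1 for its test between pretreatments. Over all genes the lowest numbers called in these runs were 3063, 767, 2831 and 400, against 4465, 1678, 4317 and 1063 in the main analysis.

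Same-numbered libraries did not deviate together, with correlations as low as -0.20 and medians between -0.08 and 0.07, so the edgeR comparisons had no replicate block. The percent of the initial level and the TDD index did divide by the library of the same number, and limma kept a replicate term for the index. The replicate block gave 7 called genes in place of 6 for cycloheximide in DMSO, and the same number in every other edgeR comparison.

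Over all genes the number called moved by more than 1.5 times in these comparisons: between 40 and 410 for vehicle over time in DMSO (159) and between 111 and 668 in MAPKi (499), up to 87, 3 and 62 for the T, CHX and TCHX arms at 0 h (0), from 4 to 38 and from 2 to 190 for cycloheximide at 1 h (12 and 11), from 767 to 1902 for cycloheximide between pretreatments (1678), from 4602 to 10255 and from 5311 to 9919 for triptolide (7468 and 8576), from 113 to 2108 for triptolide between pretreatments (474), from 2831 to 4497 for TCHX minus T in DMSO (4317) and from 400 to 1248 between pretreatments (1063), and from 0 to 52 for the TDD index (13). Depth limits DCP1B, which did not pass the filter.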
